A study of Rattus norvegicus with 11 samples.

Results

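The genes Atp1b1, Atp1b2 and Atp1b3 encode the β1, β2 and β3 subunits of the sodium pump, the Na,K-ATPase, and were read in rat alveolar epithelial cells. Every probe set annotated to exactly 1 of these genes was taken, so the 3 genes, of 4736 genes measured, are read by 7 of the 8740 non-control probe sets of the array: 3 for Atp1b1 (Entrez gene 25650), 3 for Atp1b2 (24214) and 1 for Atp1b3 (25390). A probe set is a group of short oligonucleotides designed to read transcripts, and the annotation can name 1 gene, several or none for it. Its value here is a log2 signal, so a difference of 1 is a 2-fold change. Total RNA of rat (Rattus norvegicus) cells had been hybridised to 11 arrays. Of these, 4 arrays carried RNA of freshly isolated type II (TII) cells, 4 of freshly isolated type I (TI) cells, and 3 of TII cells kept in culture. The array titles give day 0 for both fresh groups and day 7 for the culture. The labels leave out strain, age, sex, isolation method and culture conditions. The source field names TI cells for every array, so groups were read from the sample descriptions. Nothing in the labels ties arrays to animals or preparations, and the p-values therefore measure the spread between these arrays, which may be technical.

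The Na,K-ATPase is built from a catalytic α subunit, which exports sodium and imports potassium at the cost of ATP, and a β subunit, a glycoprotein that crosses the membrane once. The β subunit is needed for folding of α and for its delivery to the plasma membrane. In alveolar epithelium the pump sits in the basolateral membrane, where it drives the sodium and fluid absorption that begins at apical sodium channels. β1 is the main β isoform of epithelia and also takes part in adhesion between neighbouring cells. β2 is best known from nervous tissue, where it was described as an adhesion molecule on glia. β3 is found in many tissues.

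Array medians lay between 5.43 and 5.51, and the values within an array spread less in fresh TI (SD 1.77 to 1.85) than in fresh TII (1.92 to 1.95) or cultured TII (1.95 to 1.97). The labelled cell types were checked against marker genes. Each list was read as the log2 of its summed unlogged signals, in which the brightest genes weigh most. Measured type I markers (5 of the 6 listed) lay at 9.82 to 9.93 in fresh TII, 10.97 to 11.49 in cultured TII and 13.2 to 13.3 in fresh TI. Measured type II markers (5 of 8) lay at 14.52 to 14.62, 8.55 to 9.48 and 11.48 to 13.12 in the same order. Fresh TI arrays thus carried a clear type II signal, with replicates 2 and 3 (13.04 and 13.12) above replicates 1 and 4 (12.47 and 11.48). Sftpc made up most of this sum in fresh TI, with a mean of 11.9, where the other measured markers lay between 6.55 and 9.62. Against fresh TII, Sftpc differed by -1.19 and the others by -1.81 to -4.03. Of the type I markers, Pdpn, Akap5, Aqp5 and Ager were higher in culture than in fresh TII, by 0.945 to 3.69. Cav1 differed there by -0.06. The arrays carried bulk samples, in which fewer cells of a type and less RNA per cell cannot be told apart.

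The first comparison, fresh TI against fresh TII, asks how these cell types differ in pump subunit transcripts. Atp1b1 and Atp1b3 transcripts were lower in fresh TI cells, Atp1b1 by 1.7-fold to 10.1-fold depending on the probe set and Atp1b3 by 2.03-fold. Atp1b2 differed by at most 0.24 in log2, with 1 of its 3 probe sets called higher. Calls rest on limma's two-sided test with Benjamini-Hochberg adjustment over all 8740 probe sets, at a threshold of 0.05. Of the 7 probe sets, 5 were called, against 54.7% of all probe sets. The 4 called lower compare with 20.4% of all probe sets called lower, and 3 of them were at least 2-fold lower, against 5.22% of all. In 5 of 7 the arrays of the groups did not overlap, against 50.7% of all. The median difference over the 7 probe sets was -0.77, where the median over all probe sets was 0.125.

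Atp1b1 on its brightest probe set, rc_AI112173_at, read 10.18, 10.10, 10.48 and 9.99 on the 4 fresh TII arrays. On the 4 fresh TI arrays it read 7.61, 7.93, 7.84 and 7.63. Every fresh TI array lay more than 2 log2 units below every fresh TII array. The group means were 10.19 ± 0.21 (SD, n = 4) in fresh TII and 7.75 ± 0.16 (SD, n = 4) in fresh TI. The difference was -2.43 ± 0.13 (SE), a 5.4-fold lower signal (limma adjusted p = 1.27e-08).

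On the second Atp1b1 probe set, rc_AI230614_s_at, fresh TII arrays read 8.64, 8.71, 8.89 and 8.42. Fresh TI arrays read 5.10, 5.72, 5.65 and 4.88. The groups were again far apart, and replicates 2 and 3 were the higher fresh TI arrays, as they were for the type II marker sum. The difference was -3.33 ± 0.17 (SE), or 10.1-fold, between means of 8.67 ± 0.20 and 5.34 ± 0.41 (SD, n = 4 each; limma adjusted p = 8.91e-09). The third, X63375exon_at, read 5.91, 5.92, 6.60 and 5.99 in fresh TII and 5.42, 5.22, 5.24 and 5.48 in fresh TI. Its groups did not overlap either, but its difference was smaller, -0.77 ± 0.14 (SE), or 1.7-fold (limma adjusted p = 0.000919). Fresh TII replicate 3 was the high array of that group, and without it the difference was -0.60.

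**Figure D1:**
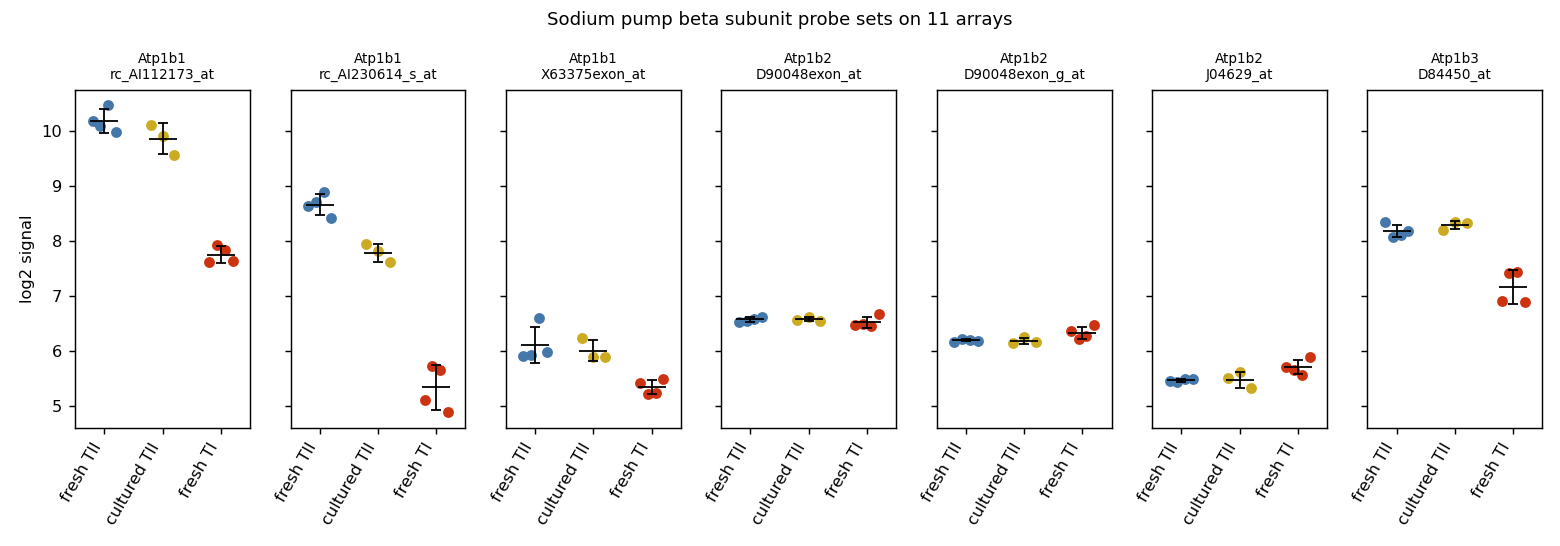
Log2 signal (vertical axis) of the 7 probe sets of Atp1b1, Atp1b2 and Atp1b3 on each array, by group (horizontal axis). Dots are arrays and bars are the group mean ± SD, and levels are to be compared within a probe set. Fresh TI arrays lie below fresh TII arrays in the 3 Atp1b1 panels and in the Atp1b3 panel, with 10.19 against 7.75 on average for rc_AI112173_at.

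Atp1b3 has 1 probe set, D84450_at. It read 8.34, 8.08, 8.12 and 8.19 in fresh TII and 6.90, 7.41, 7.44 and 6.88 in fresh TI. The groups did not overlap, and the 2 higher fresh TI arrays were replicates 2 and 3, as on both brighter Atp1b1 probe sets. On X63375exon_at those replicates were the lower ones. The difference between means of 8.18 ± 0.12 and 7.16 ± 0.31 (SD, n = 4 each) was -1.02 ± 0.13 (SE), or 2.03-fold (limma adjusted p = 3.19e-05). With fresh TI replicates 2 and 3 left out, a setting chosen after seeing the data, Atp1b3 stood at -1.29 ± 0.09 (SE; limma adjusted p = 1.26e-06). The 3 Atp1b1 probe sets then stood at -2.57, -3.68 and -0.65, and all 4 stayed called. The rat annotation lists a pseudogene of Atp1b3, and whether the probe set also reads it was not tested.

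Atp1b2 showed small differences. D90048exon_at lay between 6.53 and 6.62 in fresh TII and between 6.46 and 6.67 in fresh TI, and these ranges overlapped. Its difference was -0.05 ± 0.07 (SE), with a 95% interval from -0.19 to 0.09 (limma adjusted p = 0.539). D90048exon_g_at lay between 6.17 and 6.21 in fresh TII and between 6.21 and 6.48 in fresh TI, a difference of 0.14 ± 0.07 (SE) with an interval from -0.01 to 0.29 (limma adjusted p = 0.11). It was not called, although leaving out fresh TI replicate 2 took it to 0.17 and past the threshold (limma adjusted p = 0.0491). Atp1b2 thus has no common direction over its probe sets.

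J04629_at was the Atp1b2 probe set that was called. It read 5.44, 5.43, 5.49 and 5.49 in fresh TII and 5.71, 5.66, 5.57 and 5.89 in fresh TI. All fresh TI arrays were above all fresh TII arrays, by a small margin. The difference was 0.24 ± 0.08 (SE), 1.18-fold (limma adjusted p = 0.0272), where the median over all probe sets was 0.125. The call was lost when fresh TI replicate 4 was left out (0.18, limma adjusted p = 0.0712), as it was without fresh TI replicate 1 or without fresh TII replicate 1 or 2 (limma adjusted p = 0.0546 to 0.0638). Fresh TI replicate 4 gave the highest fresh TI value on each of the 3 Atp1b2 probe sets and had the narrowest spread of all arrays. Detection calls were not analysed here, so whether the Atp1b2 signals lie above background is not known.

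The second comparison, cultured against fresh TII cells, asks what changed in TII cells by day 7 of culture. It shares the 4 fresh TII arrays with the first comparison. Most β subunit signals stayed within 0.32 of the fresh level, and 1 Atp1b1 probe set fell. That is 1 of 7 called, against 33.4% of all probe sets called and 14.3% called lower. The same probe set was the 1 of 7 whose arrays did not overlap, against 43.3% of all. The median difference over the 7 was -0.0047, beside -0.01 over all probe sets.

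The Atp1b1 probe set that fell was rc_AI230614_s_at, which read 7.94, 7.81 and 7.62 on the 3 cultured arrays. All 3 were below the lowest fresh TII array, 8.42, and above the highest fresh TI array, 5.72. The difference from fresh TII was -0.88 ± 0.19 (SE), or 1.83-fold (limma adjusted p = 0.0024). On rc_AI112173_at cultured cells read 10.12, 9.92 and 9.57, which overlapped the fresh TII arrays. Its difference of -0.32 ± 0.14 (SE, interval -0.63 to -0.01) was not called (limma adjusted p = 0.113). It was called without cultured replicate 1 (-0.44, limma adjusted p = 0.0391) and after quantile normalization (-0.43, limma adjusted p = 0.0326), which raises the count of called probe sets from 1 to 2. X63375exon_at read 6.23, 5.89 and 5.89 and differed by -0.10 ± 0.16 (SE; limma adjusted p = 0.698), or by 0.06 without fresh TII replicate 3. Each Atp1b1 probe set thus had a lower mean in culture, but the sizes differed and only rc_AI230614_s_at was called.

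The 3′ minus 5′ control signals, used as measures of RNA quality, were also lower in culture, both without overlap. A lower value means less loss of 5′ signal, not poorer RNA. The 3′ minus 5′ control signal of β-actin was -0.33 to -0.08 on cultured arrays and 0.32 to 0.43 on fresh TII arrays. That of GAPDH was 0.30 to 0.45 and 0.47 to 0.57. The exact permutation test gave p = 0.0571 for each, the lowest p that 3 against 4 arrays allow, and 0.114 after adjustment over 6 tests. Their part in the Atp1b1 result was not tested. Fresh TI overlapped fresh TII on both measures, at 0.21 to 0.42 for β-actin and 0.41 to 0.69 for GAPDH.

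Atp1b3 read 8.21, 8.35 and 8.33 in cultured cells, within or just above the fresh TII range of 8.08 to 8.34. The difference was 0.11 ± 0.14 (SE), with a 95% interval from -0.19 to 0.41 (limma adjusted p = 0.616). The Atp1b2 probe sets differed between cultured and fresh TII by -0.0047 to 0.011, none of them called (limma adjusted p = 0.955 to 0.983). A missed threshold does not show equal levels, and the interval for D90048exon_at ran from -0.15 to 0.16.

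Over the same culture the summed type II markers went from 14.52 to 14.62 down to 8.55 to 9.48, below all 4 fresh TI arrays. Airway markers (4 of 4 measured, all called lower) went from 12.04 to 12.3 down to 8.69 to 9.41. Of all 4736 genes, 14% were called lower in culture. On these arrays Atp1b1 fell on rc_AI230614_s_at, as given above, while Atp1b3 and Atp1b1 on rc_AI112173_at were not called. The summed macrophage and leukocyte markers (4 of 8 measured) were 11.02 to 11.26 in fresh TII, 8.2 to 9.08 in culture and 8.88 to 9.89 in fresh TI. This sum is dominated by Cd74, the invariant chain of MHC class II, with group means of 11.03, 7.41 and 9.13. The other members did not follow it: in culture Itgam was called higher (0.57 ± 0.13, SE), and Cd14 (0.42) and Ptprc (-0.19) were not called. In fresh TI Ptprc was called higher (0.43 ± 0.08, SE), Cd14 was called lower (-0.46 ± 0.15), and Itgam was not called (-0.12).

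Between the fresh groups the airway sum was 8.79 to 8.94 in fresh TI, with 4 of 4 markers called lower than in fresh TII. Fibroblast and smooth muscle markers (6 of 6 measured, 4 called higher) summed to 10.49 to 11.56 in fresh TI and 9.16 to 9.67 in fresh TII. Nerve, glia and neuroendocrine markers (5 of 8 measured, 3 called higher) were 8.23 to 8.39 in fresh TI and 7.96 to 8.01 in fresh TII. Their median difference was 0.19, beside 0.11 over all genes. Endothelial markers (3 of 6 measured, 1 called higher) were 7.23 to 7.63 and 7.13 to 7.26. Red blood cell markers (2 of 3 measured, 1 called higher and 1 lower) were 8.14 to 8.65 and 8.82 to 10.3, in the same order. The 10.3 was fresh TII replicate 3, which was also the highest fresh TII array on each Atp1b1 probe set. The other fresh TII arrays lay at 8.82 to 8.97. Beside these counts, 33% of all 4736 genes were called higher in fresh TI and 21.2% lower. The part of these cell types in the pump subunit differences was not tested.

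**Figure D2:**
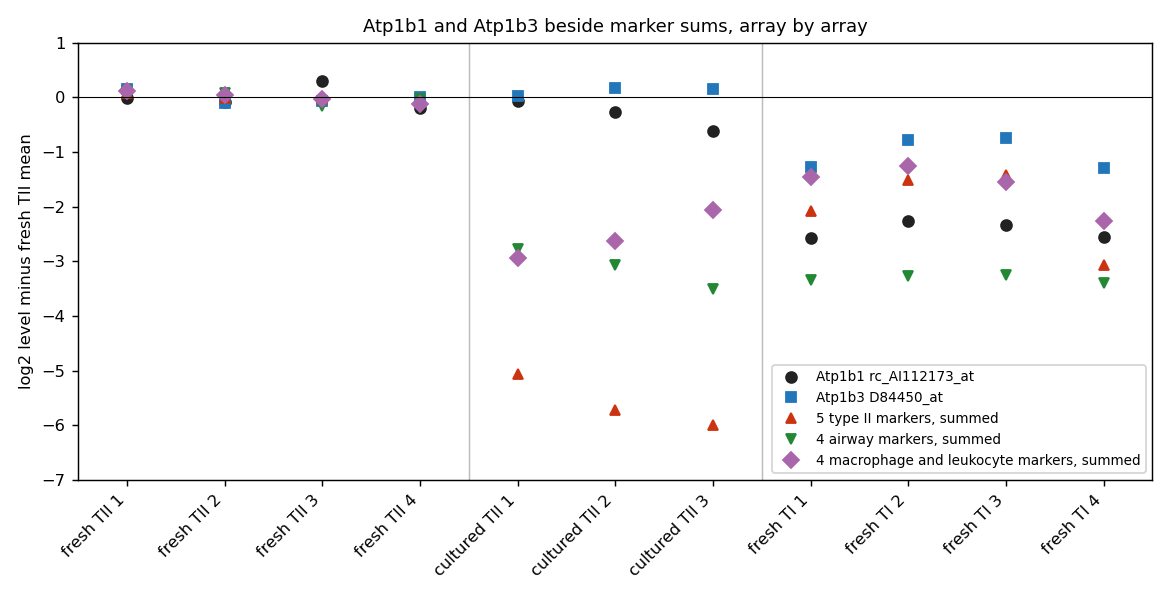
Log2 level minus the mean of the fresh TII arrays (vertical axis, log2 units) on each array (horizontal axis). Shown are Atp1b1 (rc_AI112173_at), Atp1b3 and the summed type II, airway, and macrophage and leukocyte markers. In cultured TII the type II marker sum lies at 8.55 to 9.48 against 14.52 to 14.62 in fresh TII, while Atp1b3 lies at 8.21 to 8.35 against 8.08 to 8.34.

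The third comparison sets fresh TI against cultured TII cells, with no arrays of its own. Atp1b1 and Atp1b3 were lower in fresh TI than in cultured TII. Here 5 of 7 probe sets were called, against 59.9% of all. The 4 called lower compare with 24.2% of all, and the 3 at least 2-fold lower with 6.53%. In 4 of 7 the arrays did not overlap, against 57.3% of all, and the median difference was -0.66, beside 0.13 over all probe sets. Atp1b1 differed by -2.12 ± 0.14 (SE) on rc_AI112173_at, 4.33-fold (limma adjusted p = 1.29e-07), and by -2.45 ± 0.19 on rc_AI230614_s_at, 5.48-fold (4e-07). On X63375exon_at it differed by -0.66 ± 0.16, 1.58-fold (limma adjusted p = 0.00324). Atp1b3 differed by -1.14 ± 0.14 (SE), 2.2-fold (limma adjusted p = 2.28e-05). The lowest cultured array, at 8.21, was above the highest fresh TI array, at 7.44.

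For Atp1b2 in this comparison, J04629_at was called higher in fresh TI by 0.23 ± 0.09 (SE; limma adjusted p = 0.0415), with overlapping arrays. Leaving out any single array other than fresh TI replicate 2 or 3 or cultured replicate 2 ended that call (limma adjusted p = 0.0533 to 0.185). The other Atp1b2 probe sets differed by -0.05 and 0.14 and were not called (limma adjusted p = 0.542 and 0.118). The order of the group means was thus fresh TII, cultured TII and fresh TI for each Atp1b1 probe set, from high to low, and cultured TII, fresh TII and fresh TI for Atp1b3. In these orders fresh and cultured TII were neighbours that differed beyond their spread on rc_AI230614_s_at only, by the calls given above.

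**Figure D3:**
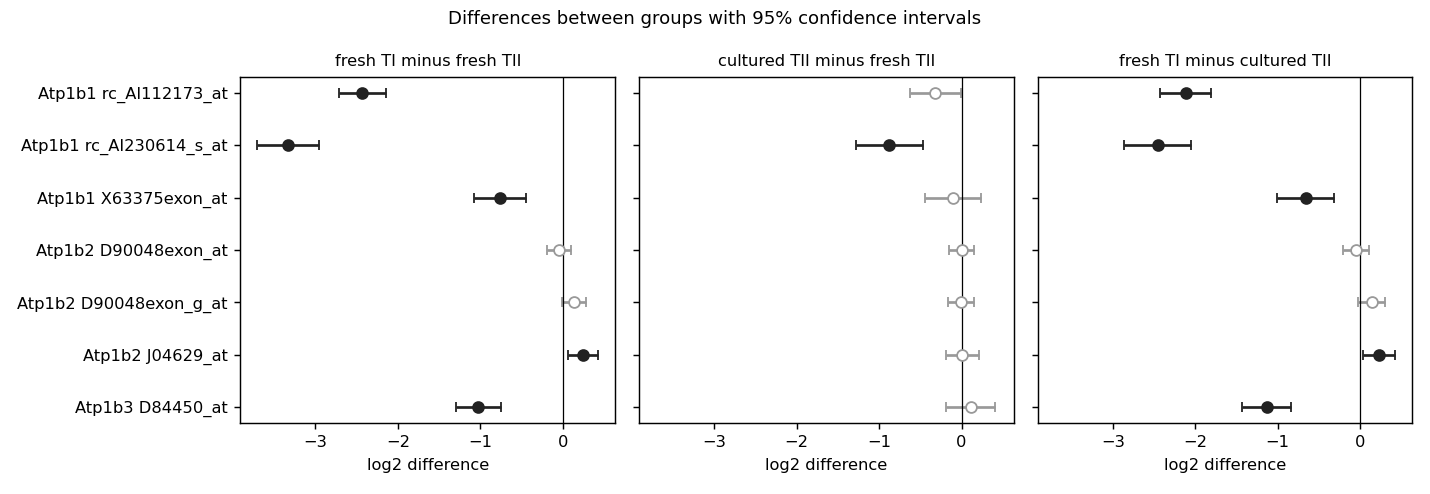
Log2 differences (horizontal axis) of the 7 probe sets in the 3 comparisons, with 95% confidence intervals from the limma fit. Filled points were called and open points were not. Both bright Atp1b1 probe sets and Atp1b3 lie at -1.02 or below in the comparisons with fresh TI, and the Atp1b2 probe sets lie between -0.05 and 0.24.

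The size of the difference was also set side by side within each array. This removes a shift common to all signals of an array, but not a difference in spread between arrays. The signal of Atp1b1 (rc_AI112173_at) minus that of Atp1b3 was 1.79 to 2.36 on fresh TII arrays, 1.24 to 1.92 on cultured arrays and 0.40 to 0.75 on fresh TI arrays. Atp1b1 was thus lower in fresh TI by more than Atp1b3 was, by a difference of -1.41 with no overlap between these groups. X63375exon_at minus Atp1b3 overlapped between fresh TI (-2.20 to -1.40) and fresh TII (-2.43 to -1.52), so the order of Atp1b1 and Atp1b3 by size of change depends on the probe set. The Atp1b1 probe sets themselves moved unequally: rc_AI112173_at minus rc_AI230614_s_at was 1.39 to 1.59 in fresh TII, 1.95 to 2.18 in culture and 2.20 to 2.75 in fresh TI. Atp1b3 minus Atp1b2 (D90048exon_at) was 1.53 to 1.81 in fresh TII and 0.21 to 0.98 in fresh TI. These exact permutation tests gave p = 0.0286 at best, the lowest that 4 against 4 arrays allow, and after adjustment over all 24 contrasts none was below 0.0806.

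Over the 11 arrays the 3 Atp1b1 probe sets correlated with each other at Pearson r = 0.986, 0.895 and 0.849, and Atp1b3 correlated with them at 0.931, 0.922 and 0.722. These values, and those that follow, describe 3 groups of arrays that share their group differences, and no p is attached to them. Among the Atp1b2 probe sets, D90048exon_g_at and J04629_at correlated at 0.872, while D90048exon_at reached 0.223 and 0.198 with them. The 5 genes whose signal followed Atp1b1 (rc_AI112173_at) most closely were Hacd3, Ptp4a1, Ltbp1, Tmeff1 and Fdps (r = 0.990 to 0.984). Hacd3 acts in very long chain fatty acid synthesis and Fdps in isoprenoid synthesis. For rc_AI230614_s_at they were Ptp4a1, Ier3, Pde7a, Celf1 and Bckdhb (0.994 to 0.987), and for X63375exon_at Map3k1, Ehmt2, Hacd3, Fkbp4 and Ggcx (0.936 to 0.899). Ptp4a1 and Hacd3 each followed 2 of the 3 Atp1b1 probe sets.

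Atp1b3 was followed most closely by Slc25a5, Ppp1cc, Rps3, Rpn2 and Cltc (r = 0.987 to 0.979). Slc25a5 is an ADP/ATP carrier of mitochondria, Rps3 a ribosomal protein and Cltc the clathrin heavy chain. Atp1b2 on J04629_at was followed by B3gat1, Actc1, Foxn1, Unc5b and Apoc3 (0.980 to 0.962), and on D90048exon_g_at by Cyp2b3, Nxph4, Sox10, Rhbdl1 and Ugt2b1 (0.971 to 0.966). For D90048exon_at the closest were Pex6, Galr3, Taok1, Slc25a14 and Sct (0.859 to 0.824). Actc1 is a cardiac actin and Apoc3 a liver apolipoprotein, while Sox10 is a neural crest transcription factor. No gene was shared between the lists of the 3 Atp1b2 probe sets.

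Pump partners were measured for 4 of 12 listed genes. The partner that was higher in fresh TI was Fxyd1, phospholemman, a small membrane protein that binds the pump and modulates it. Fxyd1 read 6.77, 6.89, 6.82 and 6.89 in fresh TII, 6.61, 6.80 and 6.81 in culture, and 7.66, 7.54, 7.58 and 7.58 in fresh TI. All fresh TI arrays were above all others, by 0.75 ± 0.07 (SE) over fresh TII (limma adjusted p = 1.89e-06), and the second Fxyd1 probe set gave 0.63 ± 0.07 (2.04e-05). The change of Fxyd1 thus ran opposite to that of Atp1b1 and Atp1b3. In culture it differed from fresh TII by -0.10 and -0.22 on these probe sets, neither called (limma adjusted p = 0.37 and 0.0542).

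Fxyd2, the γ subunit known from kidney, rose in culture. It read 3.99, 4.04, 4.28 and 4.27 in fresh TII, 4.64, 5.04 and 5.44 in culture, and 4.35, 4.22, 4.14 and 4.36 in fresh TI. All cultured arrays were above all fresh ones, by 0.89 ± 0.15 (SE) over fresh TII (limma adjusted p = 0.000423). Between the fresh groups Fxyd2 differed by 0.12 ± 0.14 (SE; limma adjusted p = 0.462). Fxyd4, a regulator of the pump in kidney and colon, and Atp1a4, the α isoform of sperm, were not called in any of the 3 comparisons, with log2 differences between -0.22 and 0.28.

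**Figure D4:**
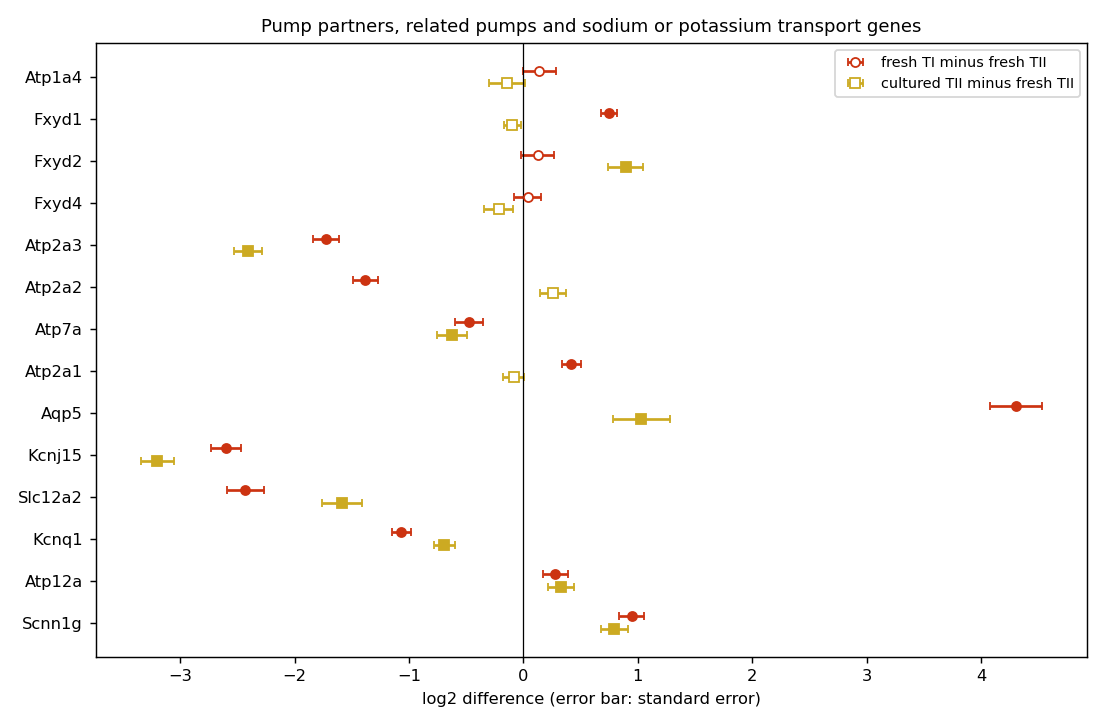
Log2 differences (horizontal axis) of pump partners and of named genes of the related lists, with bars of 1 SE from the limma fit. Filled points were called. Fxyd1 lies at 0.75 in fresh TI minus fresh TII and Fxyd2 at 0.89 in cultured minus fresh TII.

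Related ATP-driven ion pumps of the P-type family (12 of 12 measured) were higher in fresh TI than in fresh TII for 6 and lower for 3, with a median of 0.19 beside 0.11 over all 4736 genes, of which 33% were called higher and 21.2% lower. Each gene was read on its brightest probe set. Atp2a3, a calcium pump of the endoplasmic reticulum, differed by -1.72 ± 0.11 (SE) between means of 8.60 in fresh TII and 6.88 in fresh TI, and in culture it fell to 6.20. Atp2a2, another such calcium pump, differed by -1.38 ± 0.11 (SE) on its brightest probe set. Its other 3 probe sets gave 0.0065, -0.07 and 0.30, the last called higher. That last probe set was dim, with means of 3.60 in fresh TI and 3.31 in fresh TII. Atp2a1, the form of fast skeletal muscle, was higher by 0.42 ± 0.08, and Atp7a, a copper pump, lower, at -0.47 ± 0.12 (SE). Both lay below the array medians, with fresh TI and fresh TII means of 3.59 and 3.17 for Atp2a1 and 4.18 and 4.65 for Atp7a. In culture 1 of the 12 was higher and 2 lower than in fresh TII, where 20.5% and 14% of all genes were called. The 1 was Atp12a, the non-gastric proton-potassium pump, whose α subunit can pair with β1 (0.33 ± 0.11, limma adjusted p = 0.0405). Its signal was dim, with means of 2.92 in culture and 2.59 in fresh TII, where array medians lay between 5.43 and 5.51. Atp12a was also called higher in fresh TI than in fresh TII, by 0.28 (limma adjusted p = 0.039).

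Genes of alveolar sodium, potassium and water movement (17 of 23 measured) were higher in fresh TI for 8 and lower for 3, where 33% and 21.2% of all genes were called, with a median of 0.18. Aqp5, the apical water channel of TI cells, differed by 4.30 ± 0.23 (SE) from a mean of 6.25 in fresh TII to 10.56 in fresh TI. Kcnj15, an inward rectifier potassium channel, differed by -2.60 ± 0.14 (SE), and Kcnq1, a voltage-gated potassium channel, by -1.07 ± 0.08. Slc12a2, the basolateral sodium-potassium-chloride cotransporter, differed by -2.43 ± 0.16 (SE), and by -1.51, -1.10 and 0.30 on its other probe sets. The probe set at 0.30 was dim, with means of 3.12 in fresh TI and 2.82 in fresh TII. In culture 2 of the 17 were higher and 7 lower than in fresh TII, beside 20.5% and 14% of all genes. Scnn1g, the γ subunit of the epithelial sodium channel, was higher in culture by 0.79 ± 0.12 (SE), and Kcnj15 was lower, at -3.20 ± 0.15. The α subunit of the sodium channel, Scnn1a, was called lower in culture (-0.60, limma adjusted p = 0.0469), and Scnn1b was not called (0.19). Scnn1g was also higher in fresh TI than in fresh TII, by 0.95 ± 0.11 (SE).

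Regulators of the pump (20 of 24 measured) were higher in fresh TI for 8 and lower for 3, beside the same 33% and 21.2% of all genes, with a median of 0.31. Cav1, the caveolin that marks TI cells, differed by 3.75 ± 0.17 (SE). Prkcd, a protein kinase C, was higher by 0.88 ± 0.08, and Sptan1, a spectrin of the membrane skeleton, by 0.83 ± 0.06. Hsd11b1, which reactivates glucocorticoids, was lower in fresh TI (-1.92 ± 0.17) and in culture (-1.56 ± 0.18). In culture 5 of the 20 regulators were higher and 5 lower than in fresh TII, beside 20.5% and 14% of all genes. Ank3, an ankyrin that anchors basolateral membrane proteins, fell by 0.77 ± 0.10 (SE), with 5 of its 6 probe sets called lower. Add1, an adducin, was higher by 0.74 ± 0.09 (SE), with 3 of its 5 probe sets called. Against cultured TII, fresh TI was higher for 7 of the 12 P-type pumps, 11 of the 17 transport genes and 8 of the 20 regulators, and lower for 1, 2 and 1, where 34.2% and 25.8% of all genes were called.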

How the data were processed

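RNA was converted with a Superscript Choice cDNA kit and labelled with an ENZO kit, per the labels. The authors deposited 1 log2 signal per probe set and array for 11 arrays. The summarising and normalizing steps behind them are not given in the sources used here, and values alone showed that the scale is log2. Of 8799 probe sets, 59 controls were set aside and 8740 were tested without a filter on dim signal. Of these, 7006 named exactly 1 gene in the probe annotation, 308 several and 1426 none. Where 1 value stands for a gene, its brightest probe set on average was used (4736 genes). The number of arrays, 3 or 4 a group, limits the precision.

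All 11 arrays entered one limma 3.58.1 fit with a mean per group (R 4.3.3, lmFit and eBayes), and p-values were adjusted by Benjamini-Hochberg over the 8740 probe sets. Exact permutation tests used scipy 1.17.1, and those on within-array differences were added after seeing the data. The scripts were tested on simulated data. All probe sets of the 3 genes are named, then the measured pump partners, up to 4 called genes of each related list by size of difference, and the 5 genes most correlated with each probe set. The genes and lists were chosen with earlier results of these data known. Samples with the same replicate number did not deviate together, so the numbers were not taken as pairs. Alternatives were other scalings, model settings, probe sets, a replicate block and leaving out arrays. No genome coordinates are printed, because the labels name no genome build.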

Additional observations from a re-analysis of the deposited data

Results flagged for a closer look

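Within single groups, 2 of the 14 sets of 4 fresh arrays tested for the 7 probe sets held an array far from the rest by Dixon's gap test, which chance alone would mark at a rate of about 5%. For Atp1b1 on X63375exon_at, fresh TII replicate 3 read 6.60, where the next array read 5.99 and the lowest 5.91, so the gap made up 0.894 of the range. For Atp1b2 on D90048exon_at, fresh TI replicate 4 read 6.67, where the next read 6.49 and the lowest 6.46, a gap of 0.842 of the range.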

How the results depend on the processing

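Each difference was recomputed under 10 other settings and with each of the 11 arrays left out in turn. For fresh TI against either TII group, the 3 Atp1b1 probe sets and Atp1b3 kept direction and call under all of them, as did the fall of Atp1b1 on rc_AI230614_s_at in culture. For fresh TI minus fresh TII, leaving out arrays gave -2.50 to -2.33 for rc_AI112173_at and -1.12 to -0.93 for Atp1b3. Of the other values, those that crossed the threshold or changed sign follow, and the cause was not tested.

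For fresh TI minus fresh TII, Atp1b2 on J04629_at lost its call after median centring (0.199) and with array weights (0.174), and ran from 0.181 to 0.289 with arrays left out. D90048exon_g_at was called with fresh TI replicates 2 and 3 left out (0.225) and ran from 0.086 to 0.175 with single arrays left out. D90048exon_at turned to 0.018 with array spreads matched. With Atp1b2 read on another probe set, or on the mean of all 3, the sign turned, to 0.11 for the mean, 0.136 for D90048exon_g_at and 0.242 for J04629_at.

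For culture, Atp1b1 on rc_AI112173_at was called after quantile normalization (-0.433), which made 2 called probe sets in place of 1. With arrays left out it ran from -0.443 to -0.167, and the number called from 1 to 2. X63375exon_at ran from -0.216 to 0.062. Atp1b2 turned sign on D90048exon_at after quantile normalization (-0.0044) and with spreads matched (-0.014), with leave-outs from -0.019 to 0.019. On D90048exon_g_at, already -0.0047 against 0.0029 on D90048exon_at, it turned sign after median centring (0.00083), with array weights (0.02) and with a replicate block (0.019). Leave-outs gave -0.036 to 0.019 there and -0.058 to 0.09 on J04629_at.

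For fresh TI minus cultured TII, J04629_at lost its call after quantile normalization (0.208), median centring (0.182), with the compared groups alone (0.232), array weights (0.101) and a replicate block (0.196), and ran from 0.152 to 0.3 with arrays left out. D90048exon_g_at was called with spreads matched (0.204) and with fresh TI replicates 2 and 3 left out (0.229). D90048exon_at turned to 0.032 with spreads matched. On other probe sets Atp1b2 gave 0.107 for the mean, 0.141 for D90048exon_g_at and 0.231 for J04629_at.

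The replicate block, which changed no other call, gave -2.43 for rc_AI112173_at in fresh TI minus fresh TII, and same-numbered samples deviated together no more than others (r from -0.2 to 0.28, against -0.27 to 0.23).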

Other observations

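Genes of epithelial adhesion and polarity were counted because β1 also takes part in cell contacts. Of 15 listed, 6 were measured, and in fresh TI 2 were higher and 4 lower than in fresh TII, where 33% of all 4736 genes were called higher and 21.2% lower, with a median of -0.55 beside 0.11 over all genes. Cldn3, a claudin of tight junctions, was lower in fresh TI (-2.41 ± 0.16, SE) and to a like extent in culture (-2.46 ± 0.17), and its second probe set gave -2.95 and -2.98. Cldn7, another claudin, differed by -0.92 ± 0.11 (SE) in fresh TI. Tjp1, the scaffold protein ZO-1, was higher than in fresh TII both in fresh TI (0.64 ± 0.17, limma adjusted p = 0.00646) and in culture (0.67 ± 0.18, limma adjusted p = 0.01).

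Epcam, an adhesion molecule of epithelial cells, differed in sign between these comparisons, which share the fresh TII arrays. It was lower in fresh TI (-0.63 ± 0.12, SE) and higher in culture (1.72 ± 0.14), with group means of 8.22 in fresh TI, 8.85 in fresh TII and 10.57 in cultured TII. Jup, plakoglobin of desmosomes and adherens junctions, was higher in culture by 0.63 ± 0.09 (SE). In culture 3 of the 6 measured genes were higher and 3 lower, beside 20.5% and 14% of all genes. Against cultured TII, fresh TI was lower for 3 of the 6, beside 25.8% of all genes.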
